A study of Mus musculus with 6 samples.

Results

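The genes described here are 36 mouse genes for synaptic vesicles, the SNARE proteins that fuse them with the plasma membrane, and the proteins that prepare and time that fusion. They were taken by symbol from the table of all genes by a rule that holds no measured value, though with earlier results of these data known, and all 36 were found among 55536 named genes. Of these, 34 reached a mean of 1 TPM (a measure of abundance, which divides reads by transcript length and brings each sample to a common total) and were among the 14518 genes tested. Syt2 and Sv2c stayed below that level. Total RNA came from cerebral cortex of C57BL/6 fetuses at embryonic day 14.5 (E14.5). In the Ctr group the pregnant mice breathed 100% oxygen for 6 hrs, and in the Sevo group they breathed 2.5% sevoflurane, an inhaled general anaesthetic, in 97.5% oxygen for 6 hrs, with 3 samples in each group. No transgene or other drug is named for these samples, and both groups shared the raised oxygen. The sources do not say from how many fetuses or dams each sample was taken, so the p-values reach no further than these samples, whose spread may be technical.

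A synaptic vesicle is filled with transmitter by a transporter, docks at the active zone, is primed, and fuses when calcium enters. Fusion is driven by a bundle of helices that a vesicle SNARE (an R-SNARE such as synaptobrevin) forms with SNAREs of the target membrane (Q-SNAREs such as syntaxin and SNAP-25), while synaptotagmins sense calcium and complexins hold the bundle ready. NSF and its SNAP adaptors then pull the bundle apart, and the vesicle is taken back by endocytosis. In the fetal cortex much of this machinery is already made by newborn neurons, whose growing axons use vesicle fusion before many synapses exist.

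No member passed the test between the groups. At an adjusted p under 0.05 (limma on log2(TPM + 1), Benjamini-Hochberg adjustment over all tested genes) 0 of 34 members were called, against 0.00689% of all genes, which is a single gene. The lowest adjusted p of a member was 0.142, for Syt5, and the weakest was 0.970. The differences, Sevo minus Ctr on the log2(TPM + 1) scale, ran from -0.29 for Slc17a7 to 0.53 for Syt5, and only Syt5 and Syt7 differed by more than 0.5. Their median was -0.02, beside -0.06 over all tested genes, and 16 of 34 were positive (47.1%, beside 41.1% of all genes). The median size of a difference, regardless of sign, was 0.15 in the members and 0.19 over all genes. At an unadjusted p under 0.05 from limma there were 4 members (11.8%, beside 19.4% of all genes), of which 3 were higher in the Sevo group (Syt5, Syt7 and Sv2a, beside 6.56% of all genes) and 1 was lower (Slc17a7, beside 12.8%). Both shares lay near or below those of all genes, so the count says nothing particular about the members. In bulk tissue, fewer cells of a type and less RNA per cell cannot be told apart.

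The groups did not overlap in 8 members (23.5%, beside 27.1% of all genes). Vamp1, Syt5, Sv2a and Slc17a6 were higher in every Sevo sample than in any Ctr sample (beside 9.43% of all genes), and Napa, Nsf, Syt11 and Slc17a7 were lower in every Sevo sample (beside 17.7%). With 3 samples against 3, the exact two-sided permutation test gave p = 0.1 for each of these 8, the smallest value the design allows. The lower set depended on scaling. Median centring, which brings the median log2 value of every sample to the same level and moved the median difference of all genes from -0.06 to 0.04, left 0 members lower in every Sevo sample (beside 9.59% of all genes) and 6 higher (Vamp1, Vamp4, Syt5, Syt7, Sv2a and Slc17a6, beside 16.1%). With it 25 members were positive (beside 55.3% of all genes), and with quantile normalization 23 (beside 48.5%). Differences near 0 took the other sign, those of Vamp3, Snap25, Stxbp5, Napb, Syn1, Snap91 and Bsn under both scalings and those of Sv2b and Unc13a under centring alone.

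**Figure D1:**
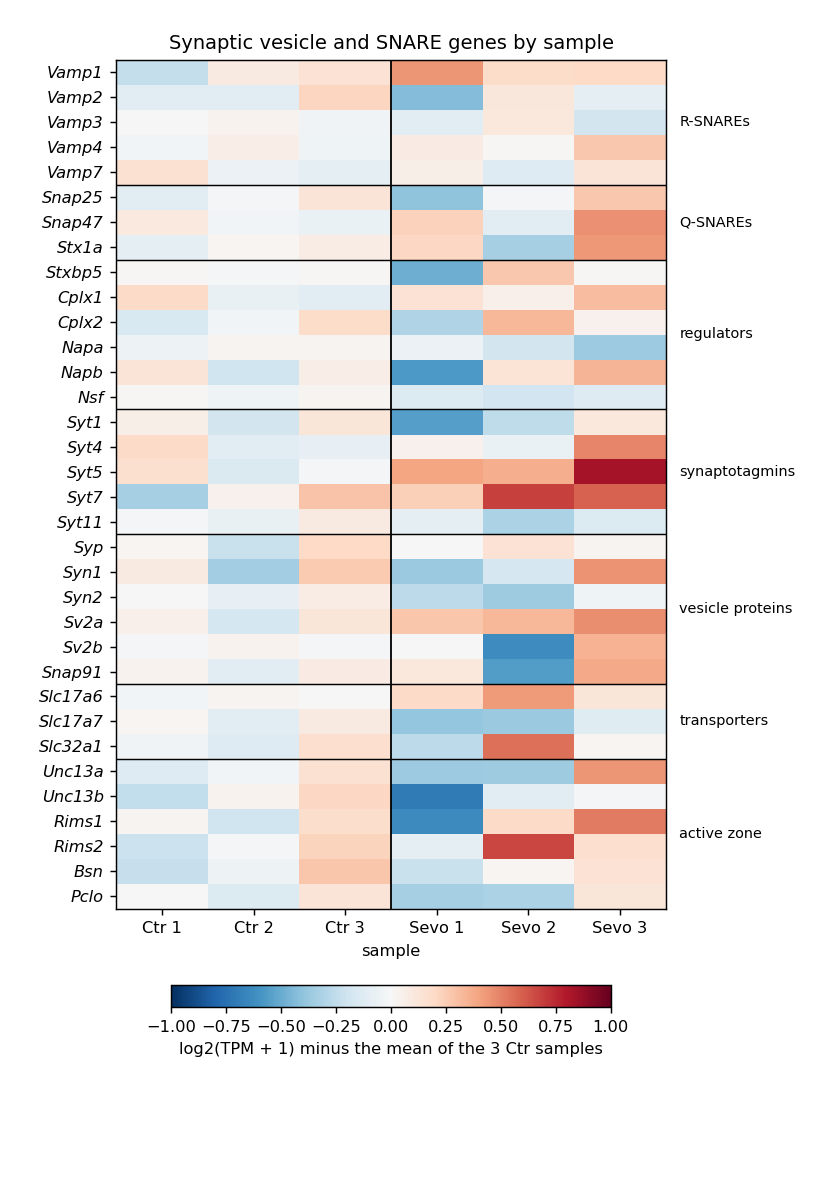
Each row is 1 of the 34 tested members and each column 1 sample; colour gives log2(TPM + 1) minus the mean of the 3 Ctr samples, from blue (lower) to red (higher), with role groups at the right. The Sevo columns differ from each other: 29 of 34 members are higher in Sevo 3 than in Sevo 1.

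Of the whole series, between 22725 and 24039 entries per sample were above 0, and mitochondrial transcripts made up 7.89% to 9.13% of each total. Read numbers cannot be recovered from TPM, and the counting error is therefore unknown. RNA of neurons and progenitors was present: all 12 neuronal markers and all 10 markers of radial glial progenitors (the dividing stem cells of the fetal cortex) were above 1 TPM in the mean. Of 11 markers of interneurons and the ganglionic eminence, all but Nkx2-1 were too. This bar therefore cannot tell the cortex from other regions. Ctr 2 stood apart by markers of meninges and choroid plexus (9 genes), which summed to 853 TPM there and to between 6.88 and 30.0 TPM in the other 5 samples, with Ttr alone at 734 TPM. Without Ctr 2 the differences were 0.46 for Syt5, 0.53 for Syt7, 0.27 for Sv2a, 0.26 for Slc17a6 and -0.35 for Slc17a7.

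The vesicular glutamate transporters, which load glutamate into vesicles, differed in opposite directions. Slc17a6 (VGLUT2; ENSMUSG00000030500, chr7:51622006-51671119, plus strand) and Slc17a7 (VGLUT1; ENSMUSG00000070570, chr7:45163949-45176142, plus strand) are protein-coding genes on the same chromosome (GENCODE M21 on GRCm38). Their promoters are shown because the RNA of this pair stood on opposite sides of the Ctr range in every Sevo sample on the TPM scale. Each window runs from 250 bases before the RefSeq start to 50 bases after it (RefSeq, GRCm38.p6), and capitals mark the GC box GGGCGG or its reverse complement CCGCCC, a motif that SP-family factors can bind.
Slc17a6, chr7:51621580-51621879, plus strand: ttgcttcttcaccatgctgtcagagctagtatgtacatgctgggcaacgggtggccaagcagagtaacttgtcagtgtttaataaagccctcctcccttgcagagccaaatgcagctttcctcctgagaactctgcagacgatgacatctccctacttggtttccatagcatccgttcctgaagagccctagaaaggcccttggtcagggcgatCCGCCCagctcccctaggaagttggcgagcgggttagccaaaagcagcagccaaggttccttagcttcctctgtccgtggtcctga
Slc17a7, chr7:45163671-45163970, plus strand: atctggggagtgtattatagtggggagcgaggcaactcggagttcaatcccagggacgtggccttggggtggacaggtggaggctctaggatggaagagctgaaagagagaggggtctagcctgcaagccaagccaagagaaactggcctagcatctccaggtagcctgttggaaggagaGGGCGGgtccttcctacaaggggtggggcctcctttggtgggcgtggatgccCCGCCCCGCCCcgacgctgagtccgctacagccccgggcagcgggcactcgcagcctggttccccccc
The Slc17a6 window held 1 copy and the Slc17a7 window 3, of which the last pair share a base. Slc17a6 has another RefSeq start, which is not shown. RefSeq promoter windows were found for 28 of the 36 members, and 63.9% of their 36 windows held the motif on either strand, beside 35.7% of 32851 windows of all genes. The latter were not limited to genes expressed in these samples, as nearly all members are, so the shares do not compare like genes. A match describes these letters and not a site in use.

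Slc17a6 was measured at 36.4, 37.8 and 37.4 TPM in the Ctr samples and 42.6, 50.3 and 40.6 TPM in the Sevo samples. Its lowest Sevo sample lay above its highest Ctr sample, and the means were 37.2 ± 0.730 TPM (Ctr) and 44.5 ± 5.13 TPM (Sevo; SD, n = 3), a ratio of 1.2. The log2 difference was 0.25 with a standard error of 0.11 (limma, unadjusted p = 0.0534, adjusted p = 0.266). Slc17a7 was measured at 42.2, 38.4 and 44.4 TPM in the Ctr samples and 31.5, 31.9 and 38.2 TPM in the Sevo samples. Its highest Sevo sample, Sevo 3, lay just below the lowest Ctr sample, and the means were 41.7 ± 3.05 and 33.9 ± 3.78 TPM (SD, n = 3), the Sevo mean being 0.813 times the Ctr mean. The log2 difference was -0.29 with a standard error of 0.12 (limma, unadjusted p = 0.0357, adjusted p = 0.225). After median centring it was -0.20 and its groups overlapped, while that of Slc17a6 was 0.35. Neither gene shares exons with another annotated gene.

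The ratio of Slc17a6 to Slc17a7 within a sample does not change when all TPM of that sample are multiplied by the same factor. It was chosen after the values were seen, and its test has no independent standing. It was 0.863, 0.985 and 0.841 in the Ctr samples and 1.35, 1.58 and 1.06 in the Sevo samples. Slc17a6 was thus the less abundant of the pair in every Ctr sample and the more abundant in every Sevo sample. The mean ratio was 0.896 ± 0.0776 in the Ctr group and 1.33 ± 0.259 in the Sevo group (SD, n = 3), with a difference of 0.54 in the log2 ratio of TPM + 1 (exact two-sided permutation test, p = 0.1, the smallest possible). Sevo 3 carried the smallest shift, and leaving out single Sevo samples gave differences between 0.41 (without Sevo 2) and 0.69 (without Sevo 3).

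**Figure D2:**
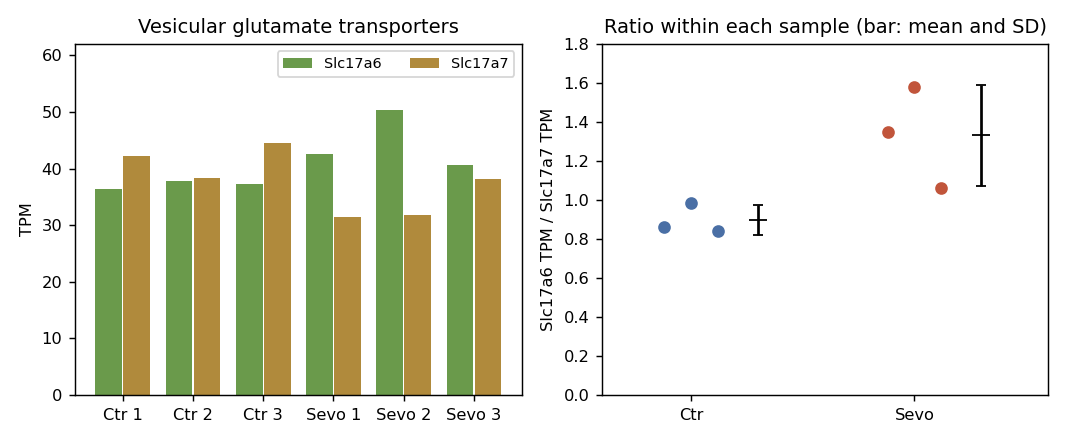
Left, bars give the TPM of Slc17a6 (green) and Slc17a7 (brown) in each sample, with the axis from 0; right, points give the ratio of Slc17a6 to Slc17a7 TPM in each sample with the mean and SD of each group. The ratio lies below 1 in the 3 Ctr samples (0.841 to 0.985) and above 1 in the 3 Sevo samples (1.06 to 1.58).

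Slc32a1 (VGAT), the transporter of GABA and glycine that marks inhibitory neurons, was measured at 5.56, 5.16 and 6.57 TPM in the Ctr samples and 4.61, 8.87 and 5.83 TPM in the Sevo samples. Only Sevo 2 stood above the Ctr range and Sevo 1 lay below it. The log2 difference of 0.10 (standard error 0.23, limma adjusted p = 0.838) became -0.12 without Sevo 2. The 11 markers of interneurons and the ganglionic eminence, of which only Nkx2-1 was under 1 TPM in the mean, summed to between 164 and 188 TPM in the Ctr samples and to 122, 269 and 291 TPM in the Sevo samples. That sum, like Slc32a1, was below the Ctr range in Sevo 1 and above it in Sevo 2, but it was also above it in Sevo 3, where Slc32a1 lay inside. Gad1, which makes GABA, stood between 9.84 and 13.0 TPM in the Ctr samples and at 8.76, 27.1 and 16.7 TPM in the Sevo samples, whereas Npy, of a subset of interneurons, stood at 24.0, 15.1 and 36.7 TPM in the Sevo samples. The part of these cells in the value of Slc32a1 was not tested.

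Among the calcium sensors, Syt5 and Syt7 had the largest differences of the whole set. Syt5 (ENSMUSG00000004961, chr7:4539765-4547541, minus strand), a calcium-binding synaptotagmin, was measured at 37.6, 30.3 and 33.2 TPM in the Ctr samples and 44.5, 43.4 and 60.8 TPM in the Sevo samples. All Sevo samples lay above the Ctr samples and Sevo 3 was the highest. The means were 33.7 ± 3.67 and 49.6 ± 9.71 TPM (SD, n = 3), a ratio of 1.47, and the log2 difference was 0.53 (standard error 0.15, limma unadjusted p = 0.00873, adjusted p = 0.142). It stayed between 0.38 and 0.62 with any Sevo sample left out, and its adjusted p ranged from 0.103 to 0.390 over all alternatives tried. Syt7 (ENSMUSG00000024743, chr19:10389090-10453180, plus strand), a high-affinity calcium sensor that serves asynchronous release and vesicle replenishment, was measured at 12.6, 16.6 and 19.9 TPM in the Ctr samples and 19.2, 26.5 and 24.7 TPM in the Sevo samples. Sevo 2 and Sevo 3 lay above the Ctr range, but Sevo 1 was just under Ctr 3, so the groups overlapped. The means were 16.4 ± 3.65 and 23.5 ± 3.80 TPM (SD, n = 3) and the log2 difference was 0.51 (standard error 0.19, limma unadjusted p = 0.0295, adjusted p = 0.211). The exons of Syt7 overlap those of Gm26859 on the other strand, and without strand information the reads of such genes cannot be told apart.

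The other synaptotagmins had smaller differences, of both signs. Syt11, which lacks calcium-dependent membrane binding and was the most abundant of the family, was measured at 118, 112 and 126 TPM in the Ctr samples and 111, 95.1 and 108 TPM in the Sevo samples. The highest Sevo sample lay just below the lowest Ctr sample, and the log2 difference was -0.18 (standard error 0.09, limma adjusted p = 0.336), or -0.08 after median centring. Syt4, the other abundant member that does not bind membranes with calcium in the classical way, was measured at 51.5, 41.6 and 42.3 TPM in the Ctr samples and 46.4, 42.8 and 63.5 TPM in the Sevo samples. Only Sevo 3 lay outside the Ctr range, and the difference of 0.16 became -0.01 without it. Syt1, the main sensor of fast release in the forebrain, had means of 23.1 ± 2.67 and 19.7 ± 4.75 TPM (SD, n = 3) and a log2 difference of -0.24 (limma adjusted p = 0.514). Syt2, the fast sensor of hindbrain synapses, was not tested and stood at 0.66, 0.75 and 1.37 TPM in the Ctr samples and 0.49, 0.28 and 0.43 TPM in the Sevo samples. Its Sevo values all lay below its Ctr values, as did those of 17.7% of all tested genes. At so low a level it is not counted among the members with separate groups. Of the 5 tested synaptotagmins, 3 were positive, with a median of 0.16.

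Among the membrane, clustering and coat proteins of the vesicle (synaptotagmins, SNAREs and transporters apart), Sv2a had the largest difference, which did not pass either. Sv2a (ENSMUSG00000038486, chr3:96181151-96195521, plus strand), a vesicle glycoprotein to which the antiepileptic levetiracetam binds, was measured at 27.3, 23.3 and 28.8 TPM in the Ctr samples and 32.1, 33.5 and 36.7 TPM in the Sevo samples. Each Sevo sample lay above each Ctr sample. The means were 26.5 ± 2.87 and 34.1 ± 2.35 TPM (SD, n = 3), a ratio of 1.29, with a log2 difference of 0.36 (standard error 0.12, limma unadjusted p = 0.0173, adjusted p = 0.178). Any Sevo sample could be left out with the value staying between 0.30 and 0.40. Its paralogue Sv2b gave no like shift, with means of 5.40 ± 0.137 and 5.23 ± 2.01 TPM (SD, n = 3). The other paralogue, Sv2c, was listed between 0.17 and 0.42 TPM in all samples, too low to judge, and was not tested.

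Syp (synaptophysin), whose RNA was the most abundant among the membrane, clustering and coat proteins other than SNAREs, synaptotagmins and transporters, was measured at 87.5, 73.8 and 99.4 TPM in the Ctr samples and 86.4, 95.5 and 87.7 TPM in the Sevo samples. All 3 Sevo samples lay inside the Ctr range, and the log2 difference was 0.06 (standard error 0.12, limma adjusted p = 0.829). Snap91 (AP180), which assembles clathrin coats on vesicles being taken back, was measured at 31.9, 28.7 and 32.9 TPM in the Ctr samples and 33.6, 20.8 and 40.6 TPM in the Sevo samples. Sevo 1 and Sevo 3 lay above the Ctr range and Sevo 2 far below it, so that the difference of -0.02 became 0.24 without Sevo 2 and -0.22 without Sevo 3. The synapsins, which tether vesicles into clusters, gave -0.03 for Syn1 and -0.22 for Syn2 (limma adjusted p of 0.961 and 0.351). Syn1 was below the Ctr range in Sevo 1 and above it in Sevo 3.

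**Figure D3:**
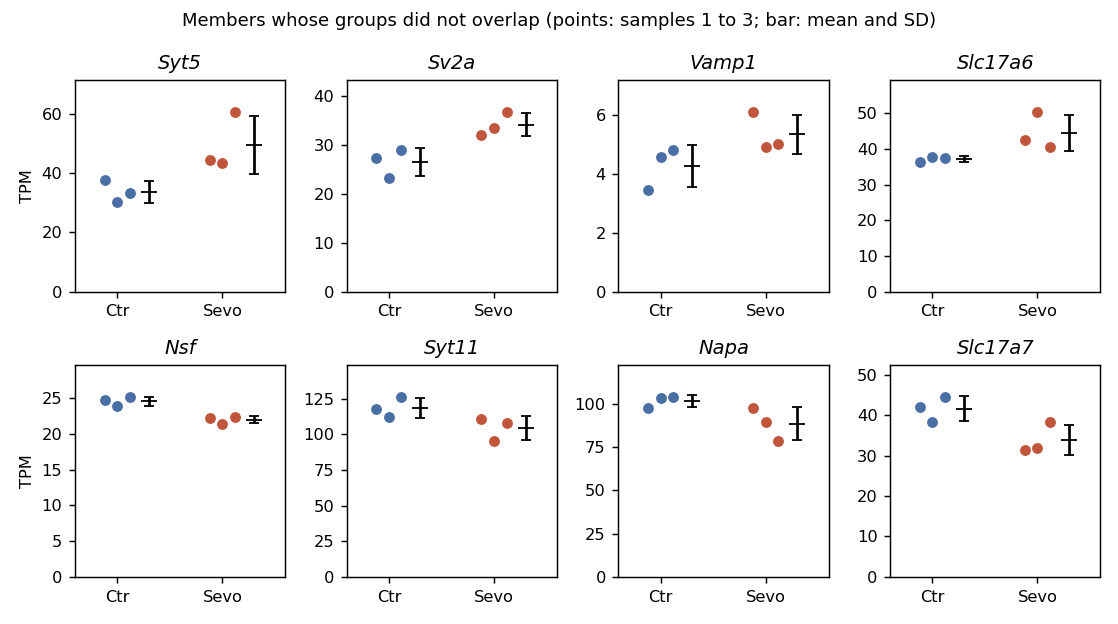
Points give the TPM of the 8 members whose groups did not overlap in the Ctr samples (blue, 1 to 3 from the left) and Sevo samples (red), and bars give mean and SD (n = 3); each axis starts at 0. The upper 4 genes are higher in every Sevo sample, the lower 4 lower, and none passes an adjusted p of 0.05.

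Of the R-SNAREs, Vamp2 (synaptobrevin 2; ENSMUSG00000020894, chr11:69088490-69092384, plus strand), the main vesicle SNARE of forebrain neurons, was measured at 118, 118 and 147 TPM in the Ctr samples and 93.7, 138 and 119 TPM in the Sevo samples. Sevo 1 was the only sample outside the Ctr range, below it. The log2 difference was -0.14 (standard error 0.16, limma adjusted p = 0.664). Vamp3 (cellubrevin), the SNARE of recycling endosomes in most cells, was measured at 44.6, 45.5 and 43.3 TPM in the Ctr samples and 41.2, 47.8 and 39.1 TPM in the Sevo samples. Sevo 2 stood above the Ctr range and the other Sevo samples below it, with a difference of -0.06. Vamp1 (synaptobrevin 1), the paralogue that prevails in brainstem and spinal cord, was a low member measured at 3.43, 4.56 and 4.79 TPM in the Ctr samples and 6.09, 4.92 and 4.99 TPM in the Sevo samples. All Sevo samples exceeded the Ctr samples, but Sevo 2 exceeded Ctr 3 only narrowly, and the difference of 0.27 had a standard error of 0.18 (limma adjusted p = 0.440). Vamp4, of the trans-Golgi network and endosomes, and Vamp7, of late endosomes and growing neurites, differed by 0.12 and 0.02.

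The values of the Q-SNAREs varied with single Sevo samples. Snap25 (ENSMUSG00000027273, chr2:136713453-136782428, plus strand), which gives the bundle a pair of its helices, was measured at 64.4, 68.6 and 76.3 TPM in the Ctr samples and 52.6, 69.0 and 84.1 TPM in the Sevo samples. Sevo 1 lay below and Sevo 3 above the Ctr range. The difference of -0.05 (standard error 0.17, limma adjusted p = 0.905) became 0.13 without Sevo 1 and -0.21 without Sevo 3. Snap47, a broadly expressed relative of SNAP-25 and the most abundant member of the set, was measured at 163, 149.9 and 146 TPM in the Ctr samples and 179, 142 and 211 TPM in the Sevo samples. Here Sevo 1 and Sevo 3 were above and Sevo 2 below the Ctr range, and the difference of 0.20 (standard error 0.14, limma adjusted p = 0.488) was 0.34 without Sevo 2 and 0.06 without Sevo 3. Its exons overlap those of Jmjd4. Stx1a (syntaxin 1A), the Q-SNARE of the plasma membrane, had the same order of Sevo samples as Snap47, with means of 27.6 ± 1.76 and 30.5 ± 8.06 TPM (SD, n = 3).

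Napa and Nsf, which take used SNARE bundles apart, had small negative differences that did not pass. Napa (alpha-SNAP; ENSMUSG00000006024, chr7:16098458-16117975, plus strand), the adaptor that loads NSF onto the bundle, was measured at 97.7, 103 and 104 TPM in the Ctr samples and 97.6, 89.4 and 78.7 TPM in the Sevo samples. The lowest Ctr sample, at 97.69 TPM, only just exceeded the highest Sevo sample, at 97.59 TPM. The log2 difference was -0.20 (standard error 0.10, limma unadjusted p = 0.0824, adjusted p = 0.320), and it was -0.12 without Sevo 3 and -0.10 after median centring. Nsf (ENSMUSG00000034187, chr11:103821782-103954056, minus strand), the ATPase itself, was measured at 24.8, 23.9 and 25.1 TPM in the Ctr samples and 22.2, 21.4 and 22.4 TPM in the Sevo samples. The spread within each group was small, with means of 24.6 ± 0.645 and 22.0 ± 0.514 TPM (SD, n = 3), a ratio of 0.895. Its difference of -0.15 had a standard error of 0.10, for which limma also draws on the variance of other genes. The limma unadjusted p was 0.158 and the adjusted p 0.431. After median centring the difference was -0.06. Napb (beta-SNAP), the neuronal form of the adaptor, was measured at 9.85, 7.66 and 9.39 TPM in the Ctr samples and 5.68, 9.93 and 11.6 TPM in the Sevo samples. Sevo 1 lay below the Ctr range while Sevo 2 and Sevo 3 lay above it, and the difference of -0.03 became 0.24 without Sevo 1 and -0.22 without Sevo 3.

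Complexins clamp and trigger the assembled bundle. Cplx2, the more abundant in these samples, was measured at 53.9, 59.0 and 68.6 TPM in the Ctr samples and 48.6, 76.1 and 61.9 TPM in the Sevo samples. Sevo 1 was below and Sevo 2 above the Ctr range, with a difference of 0.02. Cplx1 had means of 37.2 ± 4.48 and 41.9 ± 3.96 TPM (SD, n = 3) and a difference of 0.17 (limma adjusted p = 0.496). Stxbp5 (tomosyn), which competes with synaptobrevin for syntaxin and so holds back fusion, had means of 11.1 ± 0.162 and 10.8 ± 3.02 TPM (SD, n = 3). Its Ctr samples lay close together, and Sevo 1 (7.63 TPM) and Sevo 2 (13.6 TPM) stood on opposite sides of them.

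At the active zone, where vesicles dock and are primed, 0 of 6 members were at an unadjusted p under 0.05 (beside 19.4% of all genes). None had separate groups (beside 27.1%). With 6 genes, such counts say nothing particular about this role. Unc13b (Munc13-2), a priming factor that opens syntaxin, was measured at 23.6, 29.0 and 32.9 TPM in the Ctr samples and 16.9, 26.0 and 27.9 TPM in the Sevo samples. Sevo 1 alone lay outside the Ctr range, and the difference of -0.28 (standard error 0.20, limma adjusted p = 0.493) shrank to -0.07 without it. Unc13a (Munc13-1), its paralogue at most cortical synapses, was measured at 23.1, 24.9 and 28.3 TPM in the Ctr samples and 19.5, 19.6 and 34.7 TPM in the Sevo samples. Sevo 1 and Sevo 2 were below the Ctr range and Sevo 3 above it. The difference of -0.09 was -0.36 without Sevo 3, and its exons overlap those of Colgalt1. Rims1, a scaffold that tethers calcium channels near the vesicles, was measured at 4.45, 3.68 and 5.04 TPM in the Ctr samples and 2.45, 5.12 and 6.70 TPM in the Sevo samples. The difference of 0.03 became 0.36 without Sevo 1 and -0.22 without Sevo 3. Rims2, its paralogue, gave 0.25 (limma adjusted p = 0.569), carried by Sevo 2 at 15.9 TPM. The giant scaffolds Bsn (bassoon) and Pclo (piccolo) gave -0.02 and -0.18.

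The direction of many members depended on which Sevo sample was taken. Members were placed against the range of the 3 Ctr samples for this. In Sevo 1, 8 of 34 members lay above that range (23.5%, beside 26.1% of all genes) and 18 below it (52.9%, beside 43.0%). In Sevo 2, 12 lay above (35.3%, beside 31.8%) and 13 below (38.2%, beside 42.2%). In Sevo 3, 17 lay above (50%, beside 29.8%) and 5 below (14.7%, beside 39.6%). The 5 were Vamp3, Napa, Nsf, Syt11 and Slc17a7. With median centring 2 members lay below the range in Sevo 3 (beside 28.7% of all genes) and 13 in Sevo 1 (beside 29.1%).

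**Figure D4:**
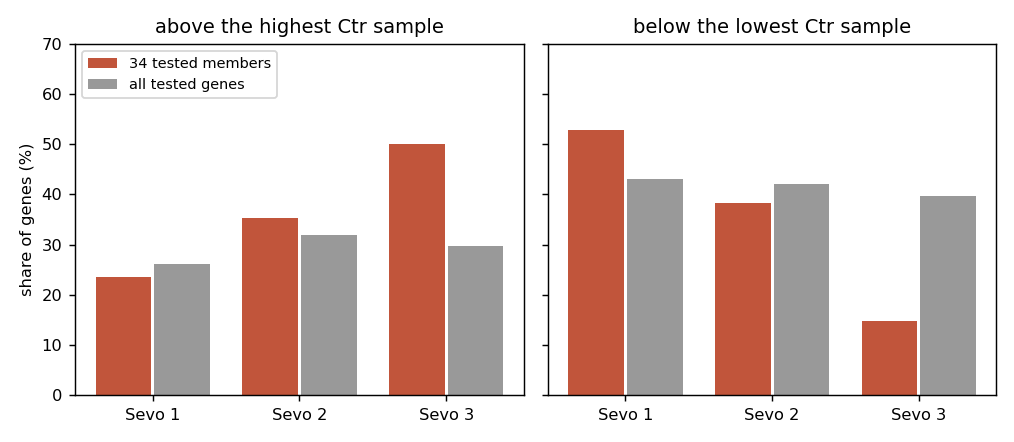
Bars give the share of the 34 tested members (red) and of all 14518 tested genes (grey) above the highest (left) or below the lowest (right) Ctr sample, for each Sevo sample, with the axis from 0. Members lie below the range at 52.9% in Sevo 1 and 14.7% in Sevo 3, beside 43.0% and 39.6% of all genes.

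Sevo 3 exceeded Sevo 1 in 29 of 34 members (85.3%, beside 53.5% of all genes), and Sevo 1 was the lowest Sevo sample in 18 (52.9%, beside 33.5%). In 9 members Sevo 1 was the only Sevo sample below the Ctr range (26.5%, beside 9.47%). They were Vamp2, Snap25, Stxbp5, Cplx2, Napb, Syn1, Slc32a1, Unc13b and Rims1, which span SNAREs, regulators, a transporter and the active zone. For 6 members Sevo 3 alone was above the range (17.6%, beside 8.72%), and for 5 Sevo 2 alone was below it (14.7%, beside 11.1%). Snap25, Napb, Syn1, Unc13a and Rims1 were below the range in Sevo 1 and above it in Sevo 3 (14.7%, beside 5.74%). A total of 13 members had Sevo samples on both sides of the Ctr range (38.2%, beside 26.6%), and Syp and Bsn had all 3 inside it (5.88%, beside 6.20%).

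The median member lay 0.10 below the Ctr mean on the log2(TPM + 1) scale in Sevo 1, at 0.00 in Sevo 2 and 0.16 above it in Sevo 3, whereas the median of all genes was -0.07, -0.05 and -0.04. The Ctr samples also differed, with member medians of 0.00, -0.06 and 0.09. Summed over all 36 members, abundance was 1322, 1269 and 1408 TPM in the Ctr samples and 1258, 1319 and 1487 TPM in the Sevo samples. The 12 neuronal markers, none of them at 0, summed to 3692, 3279 and 3550 TPM and to 3243, 3462 and 3881 TPM. Sevo 1 had the lowest and Sevo 3 the highest sum of both. Single markers did not all share that order. Dcx, a microtubule protein of young neurons, stood at 96.2, 164 and 166 TPM in Sevo 1, 2 and 3, while Neurod6, a transcription factor of cortical excitatory neurons, stood at 497, 556 and 483 TPM. Of the 12 neuronal markers, 7 had positive and 5 negative differences. Only Elavl4 had separate groups (beside 27.1% of all genes) or an unadjusted p under 0.05 from limma (beside 19.4%). It stood at 81.5, 73.3 and 75.5 TPM in the Ctr samples and 58.0, 43.1 and 60.5 TPM in the Sevo samples. Its difference was -0.52 (limma adjusted p = 0.128). Markers of radial glial progenitors summed to between 2441 and 2631 TPM in the Ctr samples and to between 1990 and 2208 TPM in the Sevo samples. Fabp7 and Vim carried most of that sum (means of 997 and 800 TPM). Of the 10 markers, 7 had negative differences and 3 positive ones (Sox2 0.28, Slc1a3 0.06 and Hopx 0.47). The 7 markers of intermediate progenitors summed to 810, 663 and 470 TPM in Sevo 1, 2 and 3 (Ctr, 779 to 822 TPM). Of these 7, 6 had negative differences and 1, Insm1, a positive one (0.11). Neurog2 stood at 254, 212 and 106 TPM in Sevo 1, 2 and 3, and its difference of -0.40 was -0.03 without Sevo 3. The part of these cell types in the member values was not tested.

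Without Sevo 1, 22 of 34 members were positive (64.7%, beside 43.4% of all genes) with a median of 0.11. The sign of 8 members turned (23.5%, beside 10.02% of all genes). Without Sevo 2 there were 17 positive members (50%, beside 41.6%), a median of -0.01 and 7 turned signs (20.6%, beside 13.5%). Without Sevo 3 there were 12 (35.3%, beside 40.7%), a median of -0.11 and 4 turned signs (11.8%, beside 10.9%). Among the Ctr samples, 17 members were positive without Ctr 1 (beside 39.5% of all genes), 13 without Ctr 2 (beside 42.9%) and 20 without Ctr 3 (beside 41.3%). Altogether 15 members turned sign with some Sevo sample left out and 19 did not, with 10 of those positive and 9 negative. For these totals the share over all genes was not counted. No member reached an adjusted p under 0.05 with any sample left out, the lowest values being 0.103 to 0.358.

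**Figure D5:**
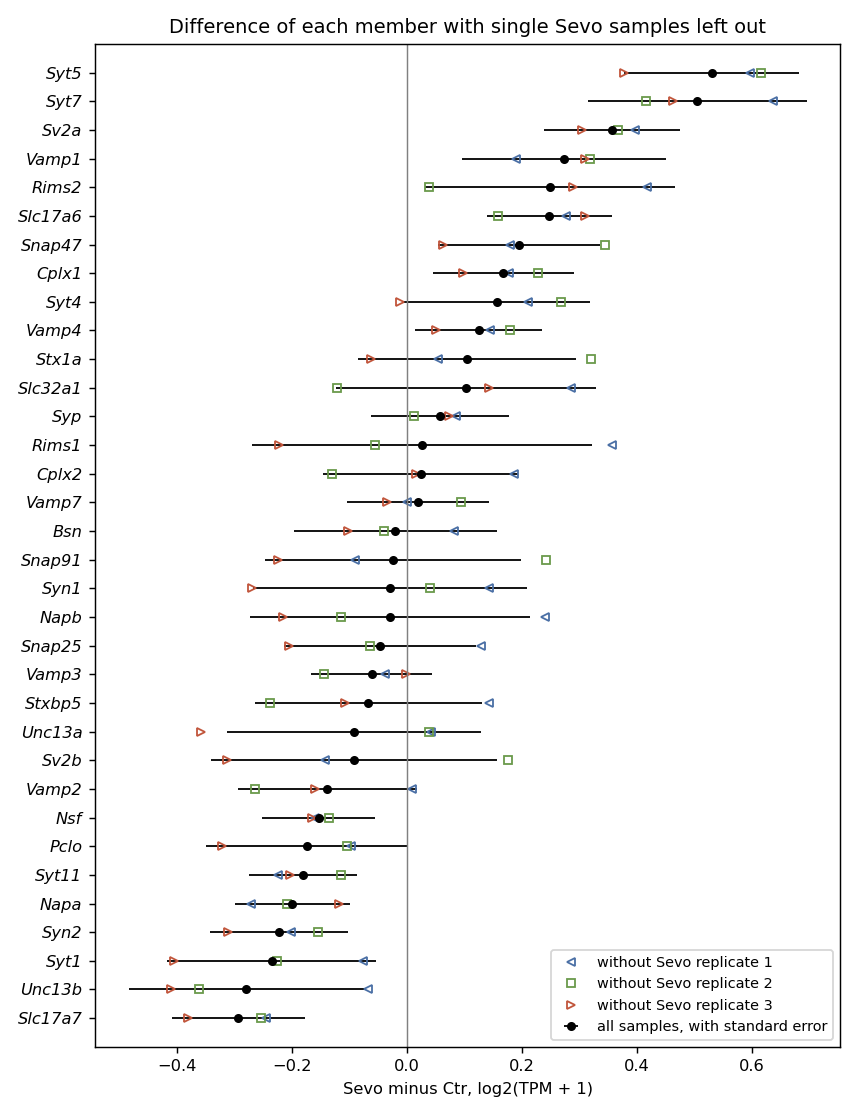
For each tested member, the filled point gives the Sevo minus Ctr difference in log2(TPM + 1) with its standard error over all 6 samples, and open marks give it without Sevo 1 (blue), Sevo 2 (green) or Sevo 3 (red). Syt5, Sv2a and Slc17a7 stay on their side of 0, while Rims1, Napb and Snap91 range from about -0.22 to at least 0.24.

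At an unadjusted p under 0.05, Syt5 and Sv2a stayed among the members called when any 1 Sevo sample was left out. Without Sevo 1 they were joined by Syt7 and, lower, Napa (4 members, beside 20.4% of all genes), and without Sevo 2 by Snap47 and Stx1a (4, beside 23.2%). Without Sevo 3 the count was 7 (beside 19.2%), with Slc17a6 higher and Syt1, Syn2, Slc17a7 and Unc13a lower. Slc17a7 and Syt7 were thus not called in every such set, and leaving out Ctr samples cut the count to 2 without Ctr 1 (Syt5 and Sv2a, beside 11.9% of all genes), 2 without Ctr 2 (Syt5 and Slc17a7, beside 13.3%) and 3 without Ctr 3 (Syt5, Syt7 and Sv2a, beside 11.8%).

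Exon length and overlap were compared across the members. The median exon length was 5396 bases over the tested members and 4171 over all tested genes, and the exons of 11 members overlap another gene's, among them Syt7 but none of the 8 with separate groups. Across the 34 members, which share the same 6 libraries, exon length and the difference had a Spearman correlation of -0.33, and with the deviation in Sevo 1, 2 and 3 it was -0.39, -0.13 and -0.11.

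The wider vesicle cycle was described by 100 further genes, of which 88 were tested. None passed an adjusted p of 0.05 (lowest 0.116), 45 were positive and the median was 0.00. At an unadjusted p under 0.05 there were 7 higher and 6 lower (14.8%, beside 19.4% of all genes). Among 21 other SNAREs and SM proteins, 0 were higher (beside 6.56% of all genes) and 4 lower (beside 12.8%), with a median of -0.14. At 19.0% in either direction, the share was close to the 19.4% of all genes. Snap29, a SNARE of autophagosome fusion, was measured at 24.7, 21.9 and 21.9 TPM in the Ctr samples and 19.6, 14.8 and 16.2 TPM in the Sevo samples. Vti1a, a Golgi and endosome SNARE, gave -0.48 and Stxbp3 (Munc18-3), which binds syntaxins outside the synapse, gave -0.47 (limma adjusted p of 0.167 and 0.186). The fourth, Stx16, gave -0.65, with overlapping groups.

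In the other lists, too, the shares at an unadjusted p under 0.05 lay near or below the 19.4% of all genes. Among 17 other active zone genes, 3 were higher (beside 6.56% of all genes) and 0 lower (beside 12.8%), 17.6% in all. Lin7b, a scaffold of the active zone, was measured at 2.91, 3.05 and 2.13 TPM in the Ctr samples and 4.29, 6.24 and 7.44 TPM in the Sevo samples. Every Sevo sample lay above the Ctr samples, with a difference of 0.90 (standard error 0.22, limma adjusted p = 0.116), the largest of the wider lists. The liprins Ppfia4 and Ppfia3 gave 0.66 and 0.34. Of 26 endocytosis genes, 3 were higher and 0 lower, 11.5% in all. Sh3gl3 (endophilin A3), which bends membrane, gave 0.62, Cltb (clathrin light chain B) 0.42 and Pacsin1 (syndapin 1) 0.46. Among 15 other vesicle membrane genes, Syngr1 (synaptogyrin 1) gave 0.48, and Synpr (synaptoporin) and Sypl gave -0.46 and -0.27, while 0 of 9 other calcium sensors and complexins were at an unadjusted p under 0.05.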

How the data were processed

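RNA-Seq had been run on 3 Ctr and 3 Sevo samples of fetal cortex, grouped by their deposited labels. The authors deposited TPM per gene and sample, rounded to 2 decimals, for 56198 entries. For the software behind the TPM, the sources used here give no name. Bowtie 0.12.2, edgeR and 2 builds, mm8 and mm10, stand in the submitters' processing notes without a role. The study names DESeq2 for differential expression, which needs counts that TPM do not hold.

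Entries without a name (662) were left out, and 27 names stored as dates were restored from Ensembl identifiers. Named genes that averaged 1 TPM or more entered a two-sided limma test (limma 3.58.1, R 4.3.3) of log2(TPM + 1) with an abundance-dependent eBayes prior and Benjamini-Hochberg adjustment over all 14518. The prior draws the variance of each gene towards that of genes of like abundance. Standard errors and p-values from limma therefore do not rest on a gene's own samples alone. Fold changes on this scale understate those of low genes. The steps were tested on simulated data with independent genes and samples. Recovery was required there only of differences far larger than any member's. That check therefore does not show that differences of the members' size would be found. Exact permutation tests were two-sided. Positions, exon lengths and overlaps came from GENCODE M21 on GRCm38, and promoters from RefSeq. Counts and plots came from Python 3.11.15 with SciPy 1.17.1, numpy 2.4.6, matplotlib 3.10.9 and pandas 2.3.3.

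The members, the wider lists, the markers and the rules were chosen with earlier results of these data known. Values in every sample are given for the 2 most abundant members of each role, members at an unadjusted p under 0.05, members with separate groups, and members whose difference passed 0.2 on both sides of 0 as single Sevo samples were left out. Up to 3 genes per wider list were named by the smallest unadjusted p under 0.05, and Stx16 was added after its value was seen. Alternatives were each sample left out, a block on the replicate number, sample weights, eBayes without trend, quantile normalization, median centring, rescaling without haemoglobin and mitochondrial genes, a pseudocount of 0.1, no filter and a filter at 5 TPM. Median centring of the comparison with the Ctr range and the alternatives for the transporter ratio were chosen after seeing the data.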

Additional observations from a re-analysis of the deposited data

How the results depend on the processing

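A pseudocount of 0.1, no filter on low values, rescaling without mitochondrial and haemoglobin genes and eBayes without trend kept the sign of every tested member, as did a minimum mean of 5 TPM for the 32 members that it retained, and no member passed an adjusted p of 0.05 under any alternative. Median centring raised the count of positive members from 16 to 25 (beside 55.3% of all genes) and left 2 members below the Ctr range in Sevo 3 (beside 28.7% of all genes). It turned Vamp3 (0.0357), Snap25 (0.0503), Stxbp5 (0.0296), Napb (0.0675), Syn1 (0.0683), Sv2b (0.0043), Snap91 (0.0728), Unc13a (0.0048) and Bsn (0.0770) positive. Quantile normalization turned Vamp3 (0.0225), Snap25 (0.0253), Stxbp5 (0.0120), Napb (0.0384), Syn1 (0.0592), Snap91 (0.0582) and Bsn (0.0584) positive. Sample weights were lower in every Sevo sample (0.849, 0.329 and 0.691) than in any Ctr sample (1.91, 1.72 and 1.58). A lower weight marks values that scatter more within the group. The weights turned Cplx2 (-0.0534), Slc32a1 (-0.0101), Rims1 (-0.0584), Sv2b (0.0196) and Snap91 (0.0909), and gave 2 genes instead of 1 at an adjusted p under 0.05 over all genes. The cause was not tested. With each sample left out in turn, that number ran from 1 to 7, members at an unadjusted p under 0.05 from 2 to 7 and members with separate groups from 9 to 13 (beside 33.6% to 41.9% of all genes), with fewer samples to separate. The number of positive members ran from 12 to 22 and the difference in log2 ratio of the glutamate transporters from 0.41 to 0.69. Members that turned sign ran from -0.13 to 0.19 for Cplx2, -0.22 to 0.24 for Napb, -0.27 to 0.14 for Syn1, -0.0347 to 0.0966 for Vamp7, -0.0542 to 0.16 for Syp, -0.22 to 0.36 for Rims1, -0.21 to 0.13 for Snap25, -0.22 to 0.24 for Snap91, -0.14 to 0.12 for Bsn, -0.27 to 0.0086 for Vamp2, -0.24 to 0.14 for Stxbp5, -0.36 to 0.0416 for Unc13a, -0.31 to 0.18 for Sv2b, -0.12 to 0.29 for Slc32a1, -0.0623 to 0.32 for Stx1a and -0.0119 to 0.27 for Syt4. Samples with the same replicate number did not deviate together (correlations of -0.02, 0.02 and 0.01), and with the replicate number as a block 0 members were called, 1 gene over all was called and no member turned sign, so the block changed no call. TPM keep no depth, so no counting error can be given, and a missed threshold does not show that the groups were alike.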

Other observations

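Genes that neuronal activity raises within minutes were listed beside the vesicle genes, and 6 of 10 were tested. None reached an unadjusted p under 0.05 from limma, the lowest adjusted p was 0.423 and the median difference was 0.15. The 10 genes summed to between 69.2 and 75.1 TPM in the Ctr samples and to 90.5, 78.6 and 64.5 TPM in the Sevo samples. Ier2 and Dusp1 carried most of these sums. Single genes did not share an order of the Sevo samples. The low genes Fos (1.28, 0.67 and 1.6 TPM in the Sevo samples) and Egr1 (0.56, 0.77 and 1.61 TPM) were highest in Sevo 3. By contrast, Junb (5.22, 7.14 and 3.15 TPM), Nr4a1 (4.88, 7.15 and 4.49 TPM) and Ier2 (33.0, 29.8 and 18.8 TPM) were lowest there.

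Hspa8 (Hsc70), the chaperone that strips clathrin coats from vesicles and also serves protein folding in every cell, was the most abundant gene of the endocytosis list, as seen after its values were known. It stood at 2130, 1943 and 1861 TPM in the Ctr samples and 1649, 788 and 1827 TPM in the Sevo samples. All Sevo samples lay below the Ctr samples, Sevo 2 far below, with a difference of -0.57 (standard error 0.28, limma unadjusted p = 0.0820, adjusted p = 0.320).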
